A study of Mus musculus with 7 samples.

Results

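Pyy, Clca3a2 and Slc27a3 were followed in keratinocytes of mouse epidermis after bone marrow transplantation (BMT). They are 3 of the 26383 genes listed for these cells, and were chosen by their measured values, as well-detected genes whose level was lower in the library KCBMTT than in the library KCBMT. The difference between these libraries is therefore given as a description, with no test. KCBMT held 2836 cells and KCBMTT 2590 cells, 5426 in all. Both came from the epidermis of irradiated male CD45.2 C57BL/6 hosts, 3 weeks after transplantation of bone marrow from female CD45.1 C57BL/6 donors. Cells were sorted as CD45neg, and mice were pooled. The treatment label of KCBMT is BMT and that of KCBMTT is BMT plus T cells. The labels and the design text differ on whether the BMT libraries also received T cells, so the comparison is between labels. With 1 library under each label, the label, the pool of mice and the library cannot be told apart, and no value below has a replicate.

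Pyy encodes peptide YY, a hormone known from endocrine cells of the lower gut and from pancreatic islets, which acts through the neuropeptide Y receptors. Clca3a2 encodes a member of the CLCA family, secreted or surface-bound proteins that carry a metalloprotease domain and modulate calcium-activated chloride channels in epithelia. Slc27a3, also called FATP3 or Acsvl3, belongs to the family of fatty acid transport proteins and acts as an acyl-CoA synthetase, which primes long-chain fatty acids for lipid synthesis. Keratinocytes divide in the basal layer of the epidermis, where Krt14 and Krt5 are their keratins, and switch to Krt1 and Krt10 as they move up and build the lipid-rich barrier.

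In build GRCm38.p6, Pyy lies on chromosome 11 (102106676 to 102107832), Slc27a3 on chromosome 3 (90385230 to 90390835) and Clca3a2 on chromosome 3 (144780581 to 144819623), all on the minus strand. No other RefSeq gene overlaps Pyy or Slc27a3, while the pseudogene Gm17743 overlaps Clca3a2. The 250 bases before the start site of RefSeq's promoter table are shown whole for Pyy, whose level differed most between the libraries, and as windows of 30 bases around motif matches for the other genes. For Pyy this start site is the 5′ end of the gene. For Clca3a2 it lies 129 bases and for Slc27a3 897 bases inside the printed span of the gene, so all 3 windows of 30 bases also lie inside that span, and the sequence searched can be transcribed from a start farther upstream. They were read 5′ to 3′ on the strand of the gene, from RefSeq (GRCm38.p6), and capitals mark a motif match.
Pyy, chr11:102107833-102108082, minus strand: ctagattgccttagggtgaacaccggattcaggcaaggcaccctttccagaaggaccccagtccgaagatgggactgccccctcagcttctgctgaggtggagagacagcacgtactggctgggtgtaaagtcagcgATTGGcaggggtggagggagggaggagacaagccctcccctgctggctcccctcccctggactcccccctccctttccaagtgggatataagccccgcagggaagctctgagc
Clca3a2, chr3:144819585-144819614, minus strand: aacagttggaGAAAAGGAAagtcccaagag
Clca3a2, chr3:144819526-144819555, minus strand: tattctggccgTGATTCAaattcccgagcg
Slc27a3, chr3:90390115-90390144, minus strand: actataagccagCCAATagcttaggtggcc
Both strands of each 250-base window were searched for TTCNNNGAA (gamma-activated site), GAAANNGAA (core of the interferon-stimulated response element), TGANTCA (AP-1), AACNGGTT (Grainyhead), CACGTG (E-box), TATAAA and CCAAT. Pyy held only a CCAAT match, on the opposite strand, starting 113 bases before the start site, and Slc27a3 a CCAAT match 194 bases before the start site used. Clca3a2 held the interferon-stimulated core 110 bases and the AP-1 letters 50 bases before the start site used. Of 27025 mouse promoters of the same length, 34.5% held CCAAT, 7.16% the interferon-stimulated core and 6.87% the AP-1 letters. A match is a string of letters and not a site. The windows had a GC content of 61.2% for Pyy, 62.4% for Slc27a3 and 42% for Clca3a2, against a median of 52% over all promoters.

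Levels are given as UMIs (unique molecular identifiers, counted transcripts) of the gene per 10000 UMIs of the cells, summed over cells. Intervals are exact 95% intervals, Poisson for levels and Clopper-Pearson for shares of cells, and cover counting error only. The libraries were of similar depth, with 27817737 UMIs and a median of 8895.5 per cell in KCBMT and 24959785 UMIs and a median of 8834 in KCBMTT, and they shared 2 cell barcodes. The 5 clusters carry the names of the deposited annotation, which were checked against marker genes. In KCBMT, Krt14 stood at 396 per 10000 in Basal cells and Krt10 at 154 in Differentiated cells. Krt79, a keratin of the upper hair follicle, reached 26.7 in Follicular cells and at most 0.0440 in the other clusters. KC_Four had 6.47 of Mki67, a marker of cycling cells, and KC_Five 8.75 of Cdc20, a gene of mitosis. Among markers of other cell types, the 7 leukocyte genes summed to 22 UMIs in KCBMT, with Ptprc at 0, and to 81 UMIs in KCBMTT. The 6 listed Merkel cell genes summed to 48 and 18 UMIs, and 3 endothelial genes to 32 and 39. The 4 melanocyte genes summed to 366 and 353 UMIs, of which 222 and 278 lay in Follicular cells. The 4 fibroblast genes summed to 875 and 730 UMIs, of which 726 and 701 lay in Follicular cells. Of the 7531 genes with at least 0.1 UMIs per 10000 over both libraries, 13 (0.173%) were at least 2-fold lower and 41 (0.544%) at least 2-fold higher in KCBMTT. The median log2 ratio over them was 0.00088.

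Pyy was the gene with the lowest ratio of all 7531. KCBMT held 9537 Pyy UMIs, a level of 3.43 per 10000 (interval 3.36 to 3.498), and KCBMTT held 442, a level of 0.177 (0.161 to 0.194). The level was 19.4-fold lower in KCBMTT (interval of the ratio 17.6 to 21.3), a log2 ratio of -4.28. It is the only member past 2-fold. Clca3a2 had 34879 UMIs in KCBMT and 19596 in KCBMTT, levels of 12.5 (12.4 to 12.7) and 7.85 (7.74 to 7.96), with a log2 ratio of -0.68 (-0.70 to -0.65). Slc27a3 had 4159 and 2464 UMIs, levels of 1.495 (1.45 to 1.54) and 0.987 (0.949 to 1.03), with a log2 ratio of -0.60 (-0.67 to -0.53). Clca3a2 ranked 24th and Slc27a3 33rd from the lowest ratio, both below the 1st percentile of all tested genes, which was -0.46. Since the ratio chose the genes, these ranks describe the choice.

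**Figure D1:**
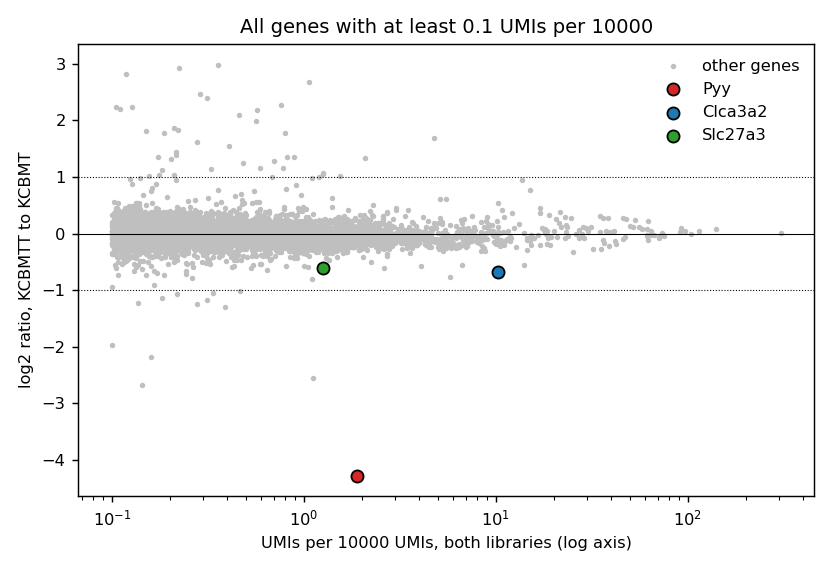
Each point is 1 of the 7531 genes with at least 0.1 UMIs per 10000, with its level over both keratinocyte libraries on a log x axis and the log2 ratio of KCBMTT to KCBMT on the y axis. Dotted lines mark 2-fold. Pyy lies at -4.28, far below every other gene, while Clca3a2 (-0.68) and Slc27a3 (-0.60) lie at the lower edge of the cloud.

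The members differed in how their UMIs were spread over cells. Pyy was seen in 515 of 2836 cells of KCBMT (18.2%, interval 16.8 to 19.6) and in 97 of 2590 cells of KCBMTT (3.75%, 3.05 to 4.55). Most of its transcripts sat in few cells. In KCBMT, 145 cells with at least 10 UMIs of Pyy, 5.11% of the library, held 90.4% of all Pyy UMIs, and the highest cell had 435. Another 189 of the 515 positive cells had a single UMI. In KCBMTT only 11 cells (0.425%) had at least 10 UMIs, the highest had 37, and these 11 cells held 51.6% of the Pyy UMIs. The lower Pyy level thus lay both in the share of positive cells (log2 ratio -2.28) and in the UMIs per positive cell, 18.5 in KCBMT and 4.56 in KCBMTT (log2 ratio -2.02). The counting interval of the Pyy level does not cover this spread between cells. Without the 10 cells with most Pyy in each library the log2 ratio was -4.76, and over cells with fewer than 10 UMIs of Pyy it was -2.01.

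Clca3a2, by contrast, was seen in most keratinocytes of both libraries, in 87.8% of KCBMT cells (86.5 to 88.9) and 83.6% of KCBMTT cells (82.1 to 85.0). With nearly all cells positive, the share left little room for a difference, and the UMIs per positive cell were 14.0 against 9.05 (log2 ratio -0.63). Cells with at least 10 UMIs made up 37.4% of KCBMT and 22.7% of KCBMTT, and the highest cells had 156 and 106. Slc27a3 was spread thinly over many cells. It was seen in 62.3% (60.5 to 64.1) and 51.2% (49.3 to 53.1) of cells, at 2.36 and 1.86 UMIs per positive cell and at most 15 and 10. After each cell was drawn down to 2500 UMIs, the share of positive cells was 11.4% against 2.05% for Pyy, 70.1% against 61.3% for Clca3a2 and 29.8% against 20.9% for Slc27a3. No cell fell below that depth. In these drawn cells the variance over the mean, which is 1 for counts scattered evenly, was 23.4 and 7.99 for Pyy, 6.77 and 5.44 for Clca3a2 and 1.34 and 1.20 for Slc27a3 in KCBMT and KCBMTT.

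**Figure D2:**
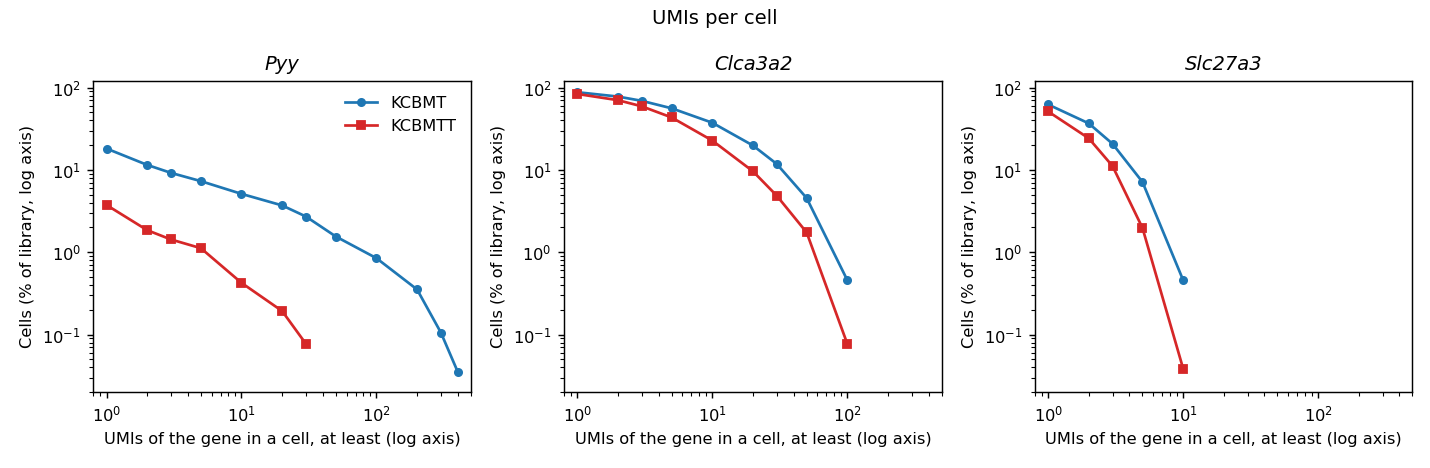
For each gene, the y axis gives the percent of a library's cells (log axis) that hold at least the number of UMIs on the x axis (log axis), with KCBMT in blue circles and KCBMTT in red squares. Points stand at fixed numbers of UMIs. The last Pyy point lies at 400 UMIs in KCBMT, where the highest cell had 435, and at 30 in KCBMTT, where it had 37. Clca3a2 and Slc27a3 keep a similar shape in both libraries, shifted down.

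Pyy was lower in KCBMTT in each of the 5 clusters. In Differentiated cells, where it was highest, it was seen in 30.4% of 493 cells of KCBMT at 6.33 per 10000 (6.12 to 6.55) and in 11.3% of 353 cells of KCBMTT at 0.418 (0.355 to 0.489). KC_Four followed in KCBMT at 4.79, against 0.162 in KCBMTT, and Basal cells had 2.72 and 0.149. Follicular cells had 1.38 and 0.0752, where 3 cells held 91.1% of the KCBMT UMIs. KC_Five was lowest, with 87 UMIs in KCBMT (0.547) and 1 UMI in KCBMTT, a log2 ratio of -6.13 with a counting interval of -11.45 to -3.61. In the other 4 clusters the log2 ratio ran from -4.88 to -3.92. The 5 levels of KCBMT did not overlap in their counting intervals. In KCBMTT the interval of KC_Four overlapped with those of Basal and of Follicular cells. These intervals do not cover the spread between cells, so they do not settle an order of clusters in either library. In KC_Four, 17 cells held 95.9% of the KCBMT UMIs, and the highest cell of KCBMTT held 34 of 40. Genes lower in KCBMTT by any amount in all 5 clusters made up 874 of 7531 (11.6%). Pyy and Slc27a3 are among them, and Clca3a2 is not.

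Clca3a2 was also highest in Differentiated cells, at 27.6 (27.1 to 28.0) in KCBMT and 21.6 (21.2 to 22.1) in KCBMTT, with UMIs in 95.7% and 96.6% of cells. Basal cells had 10.6 and 5.97, a log2 ratio of -0.83, and KC_Four 7.02 and 3.04, a log2 ratio of -1.21. In KC_Five it was 5.51 and 4.09. Follicular cells were the exception, with 4.67 (4.41 to 4.95) in KCBMT and 5.01 (4.72 to 5.31) in KCBMTT, intervals that overlap, at a log2 ratio of 0.10 (-0.02 to 0.22). Follicular cells thus had the lowest Clca3a2 of the 5 clusters in KCBMT, while in KCBMTT they stood above KC_Five and KC_Four.

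Slc27a3 had another order. It was highest in Basal cells, at 1.79 (1.72 to 1.86) in KCBMT and 1.17 (1.11 to 1.22) in KCBMTT, and lowest in Follicular cells, at 0.672 and 0.442. KC_Four, Differentiated cells and KC_Five lay between them at 1.36, 1.24 and 1.16 in KCBMT, with counting intervals that overlap. In KCBMTT they were at 0.715, 0.890 and 0.609. The log2 ratio ran from -0.93 in KC_Four and KC_Five to -0.48 in Differentiated cells.

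**Figure D3:**
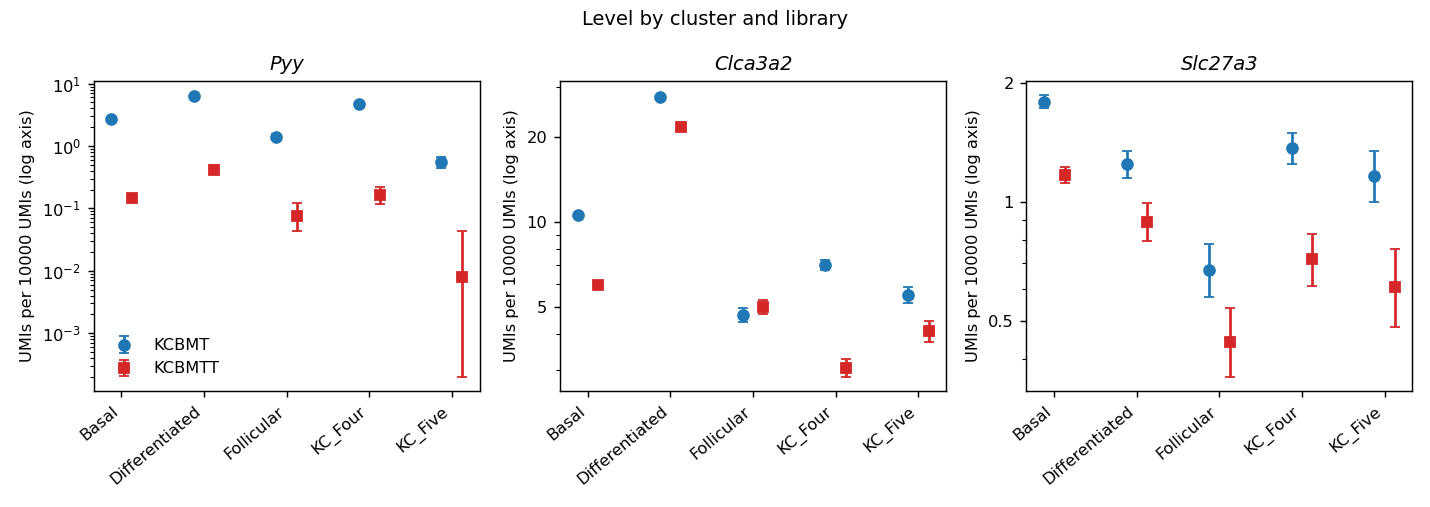
Levels of the 3 genes (UMIs per 10000 UMIs, log axis) in the 5 clusters on the x axis, with KCBMT in blue circles, KCBMTT in red squares and exact 95% Poisson intervals as bars, which cover counting error only. The libraries are apart in every cluster for Pyy and Slc27a3, and for Clca3a2 in all but Follicular cells, where 4.67 and 5.01 overlap.

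Cells were next placed by their own keratins, as the share of Krt1 and Krt10 among the UMIs of Krt1, Krt10, Krt5 and Krt14, in 4 bins of equal width. In KCBMT, Pyy was at 3.06 in the most basal bin (2382 cells), was highest, at 10.3, where the share was 25 to 50% (111 cells), and was at 4.97 and 3.08 in the upper bins. The share of Pyy-positive cells was not highest there. It was 16.3%, 21.6%, 32.5% and 28.8% from the basal to the most suprabasal bin. The 1233 Pyy UMIs of the second bin thus lay in 21.6% of its 111 cells, and single cells of KCBMT held up to 435. How far a few cells set that level was not tested. In KCBMTT the Pyy level ran from 0.125 to 0.381 and was highest in the most suprabasal bin. The interval of that bin (0.302 to 0.475) overlapped that of the third bin (0.183 to 0.504, from 17 UMIs). Clca3a2 was higher in the second bin than in the most basal one in both libraries, 25.2 against 9.97 in KCBMT and 18.3 against 5.85 in KCBMTT. In the most suprabasal bin the libraries came closest for Clca3a2, at 23.9 and 21.0 (log2 ratio -0.19, against -0.77 in the most basal bin). Slc27a3 went the other way, from 1.60 in the most basal to 0.806 in the most suprabasal bin of KCBMT and from 1.03 to 0.608 in KCBMTT. The intervals of its log2 ratio held 0 in both middle bins, which rest on few UMIs.

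**Figure D4:**
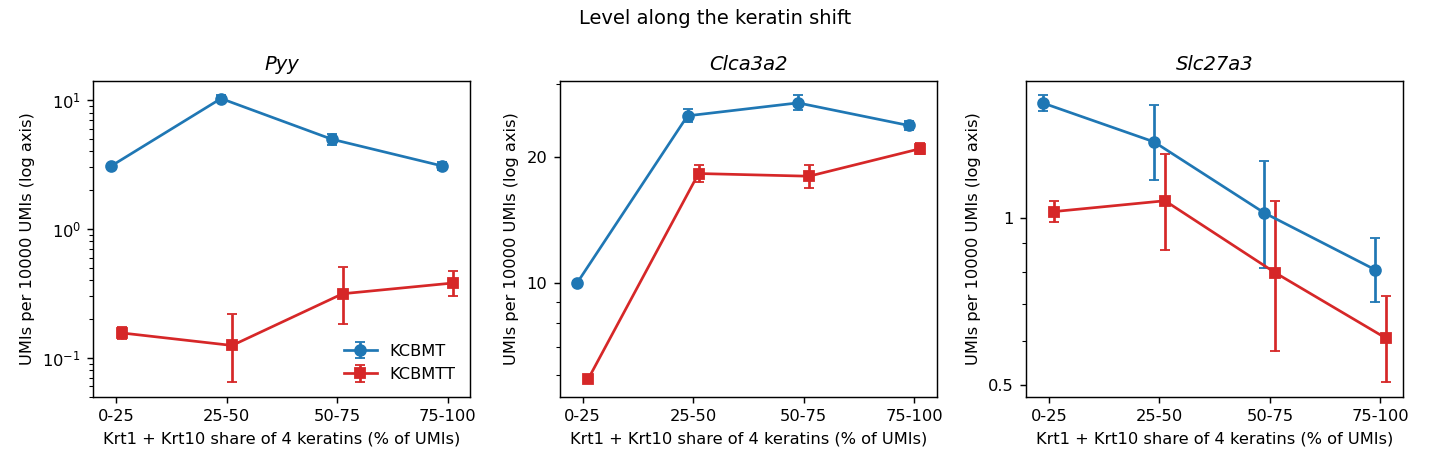
The x axis bins cells by the percent of Krt1 and Krt10 among the UMIs of 4 keratins, from basal on the left to suprabasal on the right, and the y axis gives the level of the gene (UMIs per 10000 UMIs, log axis) with exact 95% Poisson intervals. Clca3a2 goes from 9.97 to 25.2 between the first and the second bin in KCBMT (blue), and Slc27a3 from 1.60 in the first to 0.806 in the last. KCBMTT (red) lies below KCBMT in every bin.

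Within Basal cells, the cell cycle phase assigned by the authors went with the level of Clca3a2. It was 13.2 (12.9 to 13.4) in G1, 7.45 in S and 7.26 in G2M cells of KCBMT, and 6.77, 4.57 and 4.58 in KCBMTT. Pyy was at 2.86 in G1, 2.93 in S and 1.08 in G2M cells of KCBMT, the last from 145 UMIs in 118 cells. In KCBMTT it was at 0.183 (0.157 to 0.212) in G1, 0.104 (0.0766 to 0.138) in S and 0.0319 in G2M cells, the last from 3 UMIs. Only 47 Basal cells of KCBMTT held Pyy, and 6 of them held 58.1% of its UMIs. The highest had 37, against 48 UMIs in all S cells, so the order of phases there rests on few cells. Slc27a3 was at 1.97, 1.65 and 1.29 in KCBMT, and at 1.23, 1.07 and 1.01 in KCBMTT.

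Cells with a UMI of 1 member more often had a UMI of another than cells without. In cells drawn down to 2500 UMIs, Clca3a2 was seen in 91.6% of Pyy-positive and 67.3% of Pyy-negative cells of KCBMT (log2 odds ratio 2.41), and in 92.5% and 60.6% of KCBMTT (2.99). Within Basal cells alone the log2 odds ratio was 2.54 and 2.55. Slc27a3 was seen in 48.4% of Pyy-positive and 27.4% of Pyy-negative cells of KCBMT (1.31), and in 41.5% and 20.5% of KCBMTT (1.46). Clca3a2 and Slc27a3 went together more weakly, with log2 odds ratios of 0.64 and 0.45, and not in Differentiated cells of KCBMTT (-0.08). Among the cells of KCBMTT that held no Pyy UMI, Clca3a2 remained lower than in such cells of KCBMT, at 7.20 against 9.44, and Slc27a3 too, at 0.967 against 1.30. In Pyy-positive cells Clca3a2 was at 25.4 in KCBMT and 23.3 in KCBMTT. These cells differ in their mix of clusters, since Differentiated cells were 150 of 515 in KCBMT and 40 of 97 in KCBMTT. Within Pyy-positive Basal cells Clca3a2 was at 23.6 and 18.7, and within Pyy-positive Differentiated cells at 40.3 and 34.1.

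The cells rich in Pyy were then compared with cells of the same cluster that held none, a comparison chosen after the values were seen and given with no test. In KCBMT, 73 Basal cells had at least 10 Pyy UMIs and 1415 had none, with median depths of 8370 and 8053 UMIs. Among genes seen in at least 20% of the Pyy-rich cells, the largest log2 differences, on log2(level + 0.1), belonged to Gsdmc, a pore-forming gasdermin (3.43), Sprr2a3, a small proline-rich protein of the cornified envelope (3.18), Gsdmc2 (2.97) and Ccl27a, a chemokine of keratinocytes that attracts T cells (2.68). Gsdmc was seen in 54.8% of Pyy-rich Basal cells and in 3.39% of those with none. Clca3a2 came 6th, at 35.3 against 8.05 (2.12), and Slc27a3 stood at 3.99 against 1.57. Krt14 was alike, at 377 against 399, while Krt15, a keratin of basal cells, was lower, at 18.5 against 47.7. B2m, which interferon-gamma induces and whose level was higher in KCBMTT, was at 1.97 in Pyy-rich and 1.18 in Pyy-negative Basal cells. None of the 6 listed Merkel cell genes had a UMI in the Pyy-rich Basal cells. All 1684 Basal cells of KCBMT held only 3 UMIs of these genes, so this absence says little. Of the 48 such UMIs of KCBMT, 44 lay in Follicular cells, where Pyy-rich cells were not compared.

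In Differentiated cells of KCBMT, 51 cells were rich in Pyy and 343 had none. Of the 20 genes with the largest differences there, 7 were also among the 20 of Basal cells, namely Sprr2a3, Ccl27a, Gsdmc, Cxcl14, Egln3, Clca3a2 and Parp8. KCBMTT had only 6 Basal and 4 Differentiated cells with at least 10 Pyy UMIs, so cells with any Pyy UMI were used to look at the same genes. In its Basal cells, 47 positive and 1665 negative, Gsdmc was at 0.636 against 0.0271, Sprr2a3 at 4.32 against 0.295, Ccl27a at 8.86 against 1.48, Cxcl14 at 8.20 against 3.80 and Clca3a2 at 18.7 against 5.59. The matching log2 differences in KCBMT and KCBMTT were 2.49 and 2.53 for Gsdmc, 2.38 and 3.48 for Sprr2a3 and 2.01 and 2.50 for Ccl27a. The genes were picked in Pyy-rich cells of KCBMT, where 73 such Basal cells are among the 269 positive ones. The KCBMT differences thus follow from the choice. In KCBMTT, which was not used to pick them, these genes were also higher in Pyy-positive Basal cells. The differences there rest on few cells. Of the 47 cells, 14.9% held Gsdmc, with 28 UMIs in all, and 25.5% held Sprr2a3. Egln3 was higher there by level, at 0.273 against 0.167, though it was seen in 8.51% of positive and 10.2% of negative cells. In Differentiated cells of KCBMTT the difference of Sprr2a3 was smaller, 0.38, from 17 UMIs in 40 Pyy-positive cells.

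**Figure D5:**
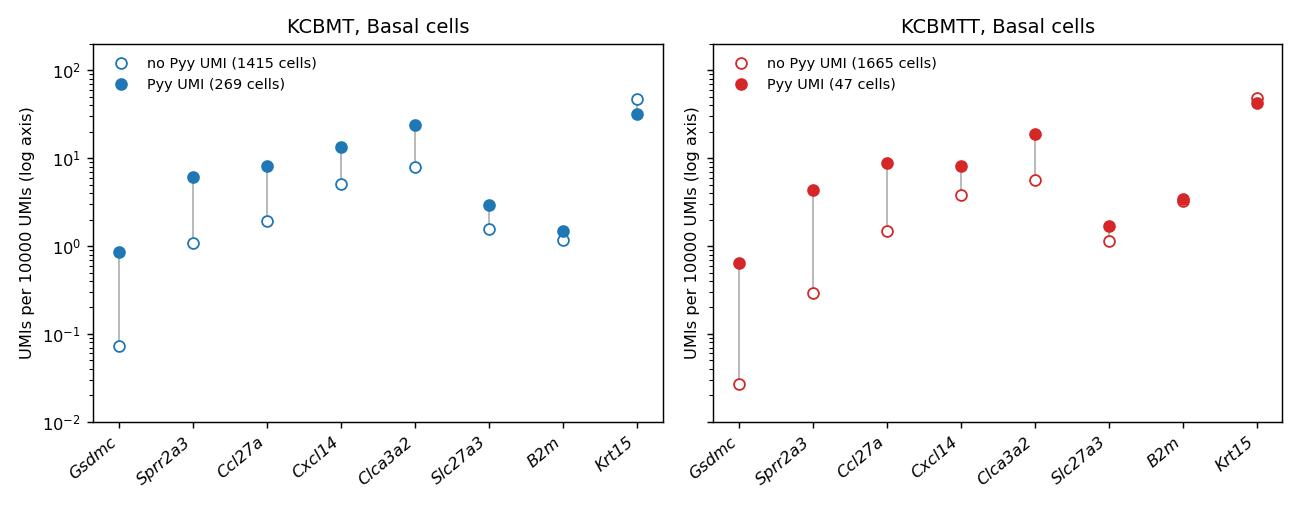
Levels of 8 genes (x axis) in Basal cells with a Pyy UMI (filled) and without (open), in UMIs per 10000 UMIs on a log y axis, for KCBMT (left, 269 and 1415 cells) and KCBMTT (right, 47 and 1665 cells). Gsdmc, Sprr2a3, Ccl27a, Cxcl14, Clca3a2 and Slc27a3 are higher in Pyy-positive cells of both libraries, and Krt15 is lower. Gsdmc, Sprr2a3, Ccl27a and Cxcl14 were picked as high in Pyy-rich cells of KCBMT. No error bars are drawn.

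Among the peptides and receptors related to Pyy, 7 of 9 genes were listed, and Pyy alone passed the minimum level. Npy, the neuropeptide of the same family, had 10 and 5 UMIs, Ppy, the pancreatic polypeptide encoded beside Pyy, had 0 and 1, and the receptor genes Npy1r, Npy2r and Npy4r had at most 5 in either library. Dpp4, the protease that trims peptide YY, was at 0.0554 and 0.0529 per 10000. Transcripts of the listed receptors were thus at the limit of detection over all cells of each library. They were not counted apart in Pyy-positive cells, and the receptor genes Npy5r and Npy6r were not listed.

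Of the CLCA family, 5 of 7 genes were listed, and Clca2 was the other one to pass the minimum level, at 0.931 and 0.752 (log2 ratio -0.31, interval from -0.39). Clca3a1, the neighbour and near-identical paralog of Clca3a2, had 242 and 253 UMIs, and reads of the pair may have been split between them by the pseudoalignment, so the level of Clca3a2 is uncertain to that extent. Clca1 had 111 and 56 UMIs. Of 11 chloride channel genes, 8 passed and none was past 2-fold in either direction. Of the 8, 4 had a log2 ratio below 0, against 3747 of all 7531 tested genes. Clic1, the most abundant, was at 9.24 and 8.68, and Ano1, a calcium-activated chloride channel, at 0.388 and 0.352.

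In the SLC27 family, 5 of 6 genes were listed and 3 passed. Slc27a1 was at 0.181 and 0.208 (log2 ratio 0.20), and Slc27a4, the family member with a known role in the skin barrier, at 0.157 and 0.149 (-0.08). Slc27a2 had no UMI in either library. Of 19 genes of fatty acid activation, elongation and transport, 13 passed and none was past 2-fold. The 13 had a median log2 ratio of -0.07, and 9 were below 0, against 3747 of all 7531 tested genes. The lowest of those that passed was Elovl4, which elongates very long chains for barrier lipids, at 0.958 and 0.644 (-0.57), followed by the acyl-CoA synthetase Acsbg1 (-0.33) and the elongase Elovl6 (-0.31). Acsl4 (0.21) and Acsl5 (0.16) were above 0.

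Genes induced by interferon-gamma moved with the label in the other direction. Of 16, 13 passed, 8 were at least 2-fold higher in KCBMTT and none had a ratio below 0, with a median log2 ratio of 1.34. Over all 7531 tested genes, 41 (0.544%) were at least 2-fold higher and 3747 were below 0. H2-Ab1 (2.99), Cd74 (2.69) and Iigp1 (2.19) were among the highest. Of 8 stress and immediate early genes, Fos (1.35) and Atf3 (1.25) were past 2-fold, higher in KCBMTT. Their part in the levels of the 3 members was not tested.

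Over the 10 sums by library and cluster, the genes most alike to each member were found by Pearson correlation of log2(level + 0.1). For Clca3a2 they were Micu2 (0.98), Orai1 (0.97), Itm2b (0.97), Lgals3 (0.96) and Slc39a6 (0.96). For Pyy they were Emc2 (0.93), Eef1d (0.89), Eif3b (0.85), Gsdmc (0.84) and Fam53a (0.83), and for Slc27a3 Eef1d (0.92), Sprr2a3 (0.90), Fam53a (0.89), Use1 (0.89) and Pfkp (0.89). The sums share libraries and depth, and the coefficients are descriptions. With Spearman coefficients 2, 2 and 3 of the 5 genes stayed among the nearest for Pyy, Clca3a2 and Slc27a3. Over the 5 clusters of KCBMT alone none did.

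The genes beside the members on the chromosome were read for comparison. Of the 6 nearest to Pyy, Mpp2 and Ppy were listed, with Mpp2 at 0.0453 and 0.0445. Around Clca3a2, Gm17743, the pseudogene that overlaps it, had 62 and 56 UMIs and Clca3b 14 and 9. Next to Slc27a3, Ints3 was at 0.168 and 0.132 (log2 ratio -0.35) and Gatad2b at 0.634 and 0.692 (0.12).

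The members were last looked for in the other libraries of the series, whose tables were made separately. In the host CD11b+MHCII+ library, labelled BMT, 43 cells of cluster 5 (median depth 35812 UMIs) carried Krt14 at 205 per 10000 and all 5 basal markers, while the 7 leukocyte markers summed to 3.13. The cluster was picked after its values were seen. There Clca3a2 was seen in 43 of 43 cells at 4.12 (3.80 to 4.46) and Slc27a3 in 39 at 0.899 (0.753 to 1.06), whereas Pyy had 2 UMIs among 1490690, a level of 0.0134 (0.00162 to 0.0485). At the Pyy level over all cells of KCBMT those cells would hold 511 UMIs, and at that of KCBMTT 26.4. Both numbers take Pyy as spread evenly over cells and clusters. In KCBMT 5.11% of cells held 90.4% of its UMIs, and its level in Basal cells was 2.72, against 3.43 over all cells. A group of 43 cells can hold few or no Pyy-rich cells, so nothing is read from the gap. The cells of cluster 5 differ from the keratinocyte libraries in sort and depth. The 7 leukocyte markers summed to only 0.00791 and 0.0325 per 10000 in KCBMT and KCBMTT. Whether cluster 5 holds keratinocytes carried through the sort or doublets with leukocytes was not tested. Elsewhere in the host library Pyy had 1 UMI, in cluster 4. No cell type that should lack Pyy was at hand within the keratinocyte libraries, so the share of cells with a Pyy UMI from free RNA was not measured there.

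The 4 donor libraries, of CD11b+MHCII+ cells, do not list Pyy. Their treatment label is BMT for DM1, DM2 and DMBMT, and BMT plus T cells for DMBMTT. Clca3a2 was seen in 0.139 to 1.86% of their cells at median depths of 7021.5 to 13387 UMIs. Krt14, which these cells should lack, had a UMI in 8.85 to 21.7% of cells. Since Krt14 was at 305 and Clca3a2 at 12.5 in KCBMT, the lower share of Clca3a2 does not show where its UMIs came from. Their source was not tested. In DM2 the highest cell held 51 of 70 Clca3a2 UMIs in Res_mLC and 36 of 47 in Cyc_mLC. In the other clusters of DM2 no cell held more than 6 Clca3a2 UMIs. The highest Krt14 count of a cell was 269 in Res_mLC and 246 in Cyc_mLC, against at most 94 in the other clusters of DM2. Whether the same cells were high in both genes was not tested. Slc27a3 was seen in 27.4%, 26.0%, 33.3% and 16.7% of cells of the cluster MC in DM1, DM2, DMBMT and DMBMTT (394, 1610, 18 and 30 cells), and in at most 2.5% of Res_mLC cells in any of them. MC did not have the highest share in every library. The share in Mig_mLC was 18.7%, 11.7%, 50% and 18.8% in the same order, from 91, 766, 2 and 16 cells, and that in Mono was 1.63%, 2.38%, 23.2% and 19.0%, from 246, 547, 82 and 63 cells.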

How the data were processed

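Single cells of mouse epidermis were measured by droplet sequencing with UMIs. The authors aligned reads with kallisto and bustools, filtered cells, removed likely doublets with DoubletFinder (no further search was made here), normalised in Seurat and clustered with the Leiden algorithm, and the submitters' processing notes name the build GRCm38. In the deposited tables each cell's UMIs were scaled to 10000, 1 was added and the natural log (ln) taken, and the deposited mitochondrial column is in percent. Undoing the log gave whole UMIs for 100% of 15311900 keratinocyte values, within a tolerance of 0.001, so counts and depths were recovered. All cells were kept.

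UMIs were summed per library and cluster and divided by summed depth. With 1 library per label no test was run. Ratios have an exact conditional binomial interval at 95%. Thinning drew UMIs without replacement down to 2500 per cell. A count of 0 allows up to 3 counts. Scripts were tested on simulated data with 200 changed genes. The 3 members and all lists were chosen with earlier results of these data known. Named genes were the families, pathways and markers listed for the members, the 5 genes most alike to each and the 3 nearest on each side. Genes of Pyy-rich cells were chosen after their values were seen. Alternatives covered scaling, filters on cells and genes, depth, clusters and pseudocount. The value of 1 gene of the interferon-gamma list, which the counts of that list include, is not reported here. Gene positions and promoters came from RefSeq. Donor and host tables were used for the members and keratinocyte markers only. Python 3.11.15, NumPy 2.4.6, SciPy 1.17.1 and matplotlib 3.10.9 were used.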

Additional observations from a re-analysis of the deposited data

Results flagged for a closer look

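Clca3a2 in Follicular cells stood apart, since its log2 ratio of KCBMTT to KCBMT was 0.0995 there and below 0 in the other 4 clusters. The counting interval of -0.02 to 0.22 holds 0. The difference between clusters was not tested, as each label has 1 library. In cells drawn down to 2500 UMIs, Clca3a2 was seen in 46.0% of Follicular cells of KCBMT and 54.1% of KCBMTT.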

How the results depend on the processing

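Each log2 ratio was recomputed under 14 alternatives and each share under 2. Of these 48 values, 28 stayed within the counting interval of the value reported, 20 lay outside it and none changed direction. For Pyy (-4.28) the mean of the logged values gave -0.42, on a scale that compresses high cells, the mean of the cells' levels -3.82, the mean over clusters -4.66, thinned cells -3.83 and a pseudocount of 0.1 gave -3.67. For Clca3a2 (-0.68) they were -0.54 with logged values, -0.74 with the mean of the cells' levels, -0.54 over clusters and -0.45 without Basal cells. For Slc27a3 (-0.60) they were -0.28 with logged values, -0.71 over clusters and -0.71 without Basal cells. In alternatives chosen after seeing the data, Pyy was at -4.76 without its 10 highest cells per library and -2.01 over cells with fewer than 10 of its UMIs, and over cells without a Pyy UMI Clca3a2 was at -0.39 and Slc27a3 at -0.43. The difference in the share of Pyy-positive cells, -14.4 points, was -9.31 when thinned and -9.64 for at least 2 UMIs. That of Clca3a2, -4.17 points, was -8.82 and -7.48. The count of genes at least 2-fold lower, 13, was 58 at a minimum level of 0.01, where few UMIs per gene limit the ratio, and 2 at 0.5 and at 1. Other than for logged values, whose construction compresses them, the cause of a shift was not tested. No paired analysis was possible because each label has 1 keratinocyte library. Depth limits the Pyy level of KCBMTT in KC_Five, which rests on 1 UMI.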

Other observations

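Of the 13 genes at least 2-fold lower in KCBMTT, the other 12 were Gsdmc2 (log2 ratio -2.67), Sprr2a3 (-2.55), Gsdmc (-2.18), Asprv1 (-1.97), Sprr1a (-1.30), 2310046K23Rik (-1.25), Krt77 (-1.23), Fgfbp3 (-1.18), Itih5 (-1.14), Serpinb12 (-1.07), Alox12e (-1.05) and Gm94 (-1.01), named after their values were seen. Sprr1a and Sprr2a3 encode proteins of the cornified envelope, Asprv1 a protease that processes filaggrin, and Alox12e an epidermal lipoxygenase. Sprr2a3 had 5110 UMIs in KCBMT and 782 in KCBMTT, and Sprr1a 1508 and 549.

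The genes of Pyy-rich cells overlapped with this set. Of the 20 genes with the largest difference in Pyy-rich Basal cells, leaving out Clca3a2, 17 passed the minimum level, 14 of them had a log2 ratio of KCBMTT to KCBMT below 0 and 3 were at least 2-fold lower, with a median of -0.57. In Differentiated cells the corresponding numbers were 16, 13 and 5, with a median of -0.52. Over all tested genes, 3747 of 7531 were below 0. The genes were picked as high in Pyy-rich cells of KCBMT, of which KCBMTT has only 6 Basal and 4 Differentiated cells, so the choice of genes bears on these counts and nothing is read from them.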
